A study of Mus musculus with 23 samples.

Results

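The subject is a pair of microRNA (miRNA) families of myelinating cells, miR-219 and miR-338, counted in dissected brain tissue of Cdr1as knockout (KO) and wild type (WT) mice. Members were the rows of the count tables named miR-219a-5p, miR-219a-1-3p, miR-219a-2-3p, miR-338-3p and miR-338-5p, which made 5 of the 1915 mature miRNAs in every table. All 5 passed the filter on low counts, which kept 669 miRNAs for testing. They are used here as a readout of myelinating cells across brain regions and genotypes.

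The study holds 23 small RNA libraries, 11 from KO and 12 from WT mice of the C57BL/6 strain, from olfactory bulb, cerebellum, hippocampus and cortex. Each genotype and region had 3 libraries, except that KO hippocampus had 2, which carry the replicate numbers 2 and 3. Cdr1as is a circular RNA of neurons with many binding sites for miR-7. The labels give neither how the knockout was made nor the age and sex of the mice, nor which animals the libraries came from. P-values therefore rest on the spread between libraries, which may be technical. A circular RNA is not counted in miRNA libraries, so the loss of Cdr1as cannot be checked here.

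MiRNAs are short RNAs that guide Argonaute proteins to messenger RNAs and lower the output of those messages. miR-219 and miR-338 are known as the miRNAs that accumulate when oligodendrocyte precursor cells turn into myelinating oligodendrocytes, the glia that wrap axons. There they repress factors that hold the precursor state, such as the growth factor receptor PDGFRα and the transcription factors Sox6 and Hes5. Each miRNA hairpin can release an arm from its 5′ side (5p) and one from its 3′ side (3p), and the first name number after miR-219a tells the hairpins apart.

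The mature sequences below show what the counted reads were matched to, with the seed (bases 2 to 8, the part that pairs with targets) in capitals. RefSeq, on build GRCm38.p6, gave a sequence for 4 of the 5 members, and miR-219a-2-3p is the member named only.
miR-219a-5p: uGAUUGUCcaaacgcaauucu
miR-219a-1-3p: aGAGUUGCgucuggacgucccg
miR-338-3p: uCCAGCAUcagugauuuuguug
miR-338-5p: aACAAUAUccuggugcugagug
The 4 seeds differ from each other, and 0 other counted miRNAs with a RefSeq sequence shared any of them.

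The hairpins show why the miR-219a arms cannot all be traced to one gene. The annotated mature arms are in capitals.
Mir219a-1: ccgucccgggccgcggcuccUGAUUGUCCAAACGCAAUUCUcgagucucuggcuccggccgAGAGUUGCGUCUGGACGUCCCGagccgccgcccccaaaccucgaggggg
Mir219a-2: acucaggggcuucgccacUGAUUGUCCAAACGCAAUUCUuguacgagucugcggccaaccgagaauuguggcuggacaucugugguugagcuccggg
Mir338: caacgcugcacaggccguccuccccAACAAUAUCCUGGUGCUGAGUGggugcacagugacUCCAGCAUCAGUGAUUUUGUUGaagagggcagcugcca
The capitals of Mir219a-2 are the same letters as the first capitals of Mir219a-1, so reads of miR-219a-5p belong to both genes at once, while the 3p arms tell them apart. On GRCm38, Mir219a-1 lies at chr17:34024983-34025092 and Mir219a-2 at chr2:29845631-29845727, both on the minus strand. In GENCODE M21 the first overlaps part of an exon of the long noncoding RNA Gm26940 on its own strand, and the second overlaps no host gene. Mir338 lies at chr11:120014765-120014862 on the minus strand, inside an intron of Aatk, a kinase gene of the nervous system, and overlaps none of its exons. The authors' counts were made on another build, mm9, so these positions describe the genes and were not used with the counts.

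Each of the 3 hairpins has a second miRNA annotated on the opposite strand, Mir219c, Mir219b and Mir3065. Of the 21 bases of miR-219a-5p, 21 are complementary to miR-219b-3p. The 6 arms from the opposite strands had 124 reads in 23 libraries, against 315904 for the members. No library had more than 11 of them. These 6 arms were too rare to pass the filter and were not tested.

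Total counts ran between 2328929 in KO cortex replicate 3 and 13070794 in WT olfactory bulb replicate 1. Levels are given as CPM, counts scaled to a common library size, after scaling each library with TMM factors, which make the typical miRNA equal between libraries. These factors were 0.620 to 0.763 in olfactory bulb, 0.757 to 0.938 in cerebellum and 1.22 to 1.41 in hippocampus and cortex, so comparisons between regions depend on them and are given with other scalings below. Region labels fitted their markers: 8 miRNAs of the miR-183 cluster and miR-200 family, known from olfactory bulb neurogenesis, summed to at least 219000 CPM in olfactory bulb libraries. The hindbrain pair miR-10a-5p and miR-10b-5p summed to at least 1467 CPM in cerebellum, against at most 515 CPM in the other regions. WT cortex stood apart, since its olfactory bulb markers summed to 3676 to 6803 CPM, against 142 to 445 CPM in KO cortex and at most 327 CPM in hippocampus. No marker of these lists was at 0 in any group, and their part in the results with WT cortex was not tested.

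Abundance differed widely among the arms. miR-338-3p was the most abundant, with a mean of 1199 CPM over 23 libraries and a rank between 57 and 86 among the 669 miRNAs tested. It held 62.3% to 80.4% of the members' reads in a library. miR-219a-2-3p came second at 318 CPM, and miR-219a-5p and miR-338-5p followed at 108 and 101 CPM. miR-219a-1-3p was rare at 3.86 CPM, from 8 to 56 reads per library, so its values carry the largest counting error. The members together made 0.0827% to 0.268% of a library. The 4 members with a RefSeq sequence are 21 or 22 bases long, and the part of length in these levels was not tested.

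**Figure D1:**
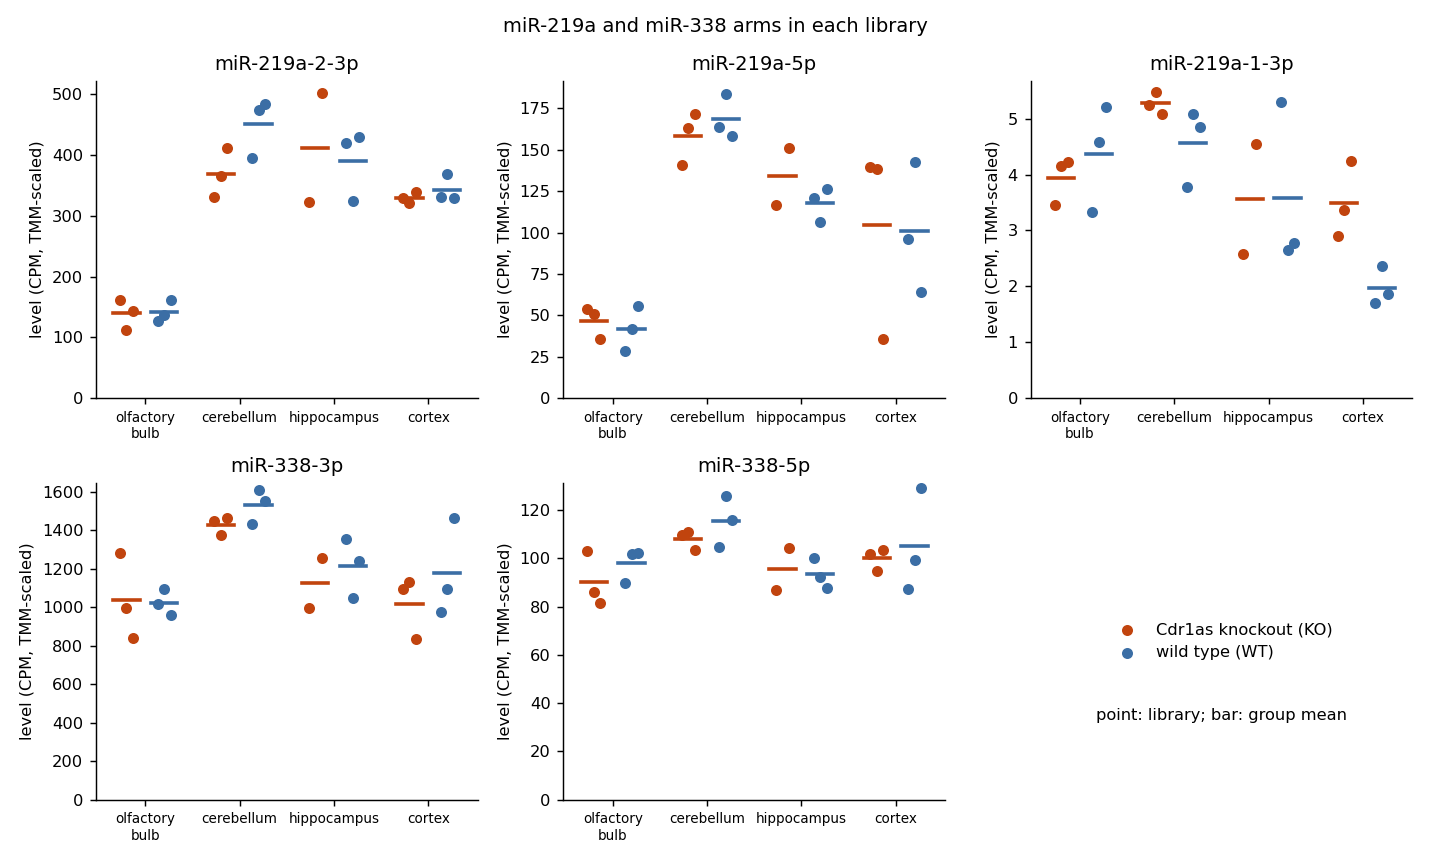
TMM-scaled level in CPM of the 5 miRNAs (vertical axis from 0, own scale in each panel) in olfactory bulb, cerebellum, hippocampus and cortex, with a point for each library, a bar for each group mean, KO in orange left of WT in blue. The 6 olfactory bulb libraries lie at 112 to 162 CPM of miR-219a-2-3p, below the 17 others at 321 to 503 CPM, and KO and WT points are intermixed in most panels.

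Cdr1as knockout was compared with wild type in each region to ask whether the miRNAs of myelinating cells change with the loss of Cdr1as. None of the 5 members passed the test in any region. miR-219a-2-3p, the most abundant miR-219a arm, had 162, 112 and 144 CPM in KO olfactory bulb, against 126, 136 and 161 CPM in WT olfactory bulb. In cerebellum it had 331, 365 and 412 CPM in KO, against 395, 474 and 485 CPM in WT. In hippocampus it had 322 and 502 CPM in KO, against 420, 324 and 429 CPM in WT. In cerebellum 2 of the 3 KO values lay under the lowest WT value, and the ranges overlapped in each of these regions. Between cerebellum libraries of the same number, whose pairing is uncertain, KO was lower in 3 of 3 pairs. With the replicate block the difference had an edgeR adjusted p of 1. In cortex it had 329, 321 and 340 CPM in KO, against 331, 369 and 329 CPM in WT, with ranges that overlapped again. Fold changes are log2 differences of KO minus WT, with adjusted p from edgeR (quasi-likelihood F test, Benjamini-Hochberg over 669 miRNAs, threshold 0.05). In cerebellum, where the difference of this arm was largest, it was -0.29 (SE 0.16, edgeR adjusted p = 1, unadjusted p = 0.0937).

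miR-338-3p, the main arm of the hairpin inside Aatk, did not separate by genotype either. It had 1281, 996 and 841 CPM in KO olfactory bulb, against 1018, 1097 and 960 CPM in WT olfactory bulb. In cerebellum it had 1449, 1377 and 1466 CPM in KO, against 1433, 1609 and 1552 CPM in WT. The KO and WT ranges overlapped in both regions. In hippocampus it had 997 and 1259 CPM in KO, against 1356, 1051 and 1240 CPM in WT. In cortex it had 1093, 1133 and 833 CPM in KO, against 977, 1094 and 1462 CPM in WT. The 2 cortex libraries numbered 3 were the extremes, low in KO and high in WT. Its partner miR-338-5p ranged over 81.4 to 111 CPM in KO libraries and 87.5 to 129 CPM in WT libraries.

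miR-219a-5p, the arm shared by both miR-219a genes, varied most within a group. It had 140, 139 and 35.5 CPM in KO cortex, against 95.8, 142 and 64.2 CPM in WT cortex. The lowest value of each genotype belonged to the library numbered 3. The other regions were tighter, at 35.4 to 53.6 CPM in KO and 28.6 to 55.6 CPM in WT olfactory bulb, and at 141 to 171 CPM in KO and 158 to 184 CPM in WT cerebellum. Hippocampus had 117 and 151 CPM in KO, against 121, 106 and 127 CPM in WT.

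Averaged over the 4 regions, the KO over WT differences were small for every member. The log2 difference was -0.07 for miR-219a-2-3p (SE 0.08, 95% interval -0.25 to 0.10) and -0.10 for miR-338-3p (SE 0.08, -0.27 to 0.08). It was -0.06 for miR-338-5p (SE 0.07, -0.21 to 0.08). All 3 intervals hold 0 and stay within 0.3 of it on the log2 scale. For miR-219a-5p the difference was 0.09 with a wider interval of -0.29 to 0.46, and for miR-219a-1-3p it was 0.22 with an interval of -0.09 to 0.53. The smallest edgeR adjusted p of the 5 was 0.930. The median log2 difference was -0.06 for the members and -0.003 for all miRNAs tested.

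The count of members called was 0 of 5 in each region, for the mean of regions and for a genotype effect that differs between regions. Over all 669 miRNAs, 0.149% were called in olfactory bulb, 0.149% in cerebellum, 0% in hippocampus and 2.09% in cortex. For the mean of regions 1.49% were called, and 1.64% for the difference between regions. DESeq2 and limma-voom also called 0 members in these 6 comparisons. In hippocampus they called 3 and 2 of all miRNAs, and 39 (5.83%) had an unadjusted p under 0.05 in edgeR. A count of 0 of 5 lies near each of these shares.

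The single member with an unadjusted p under 0.05 was the rare miR-219a-1-3p in cortex, where 4.63% of all miRNAs had one. It had 2.89, 3.36 and 4.24 CPM in KO cortex, against 1.70, 2.36 and 1.86 CPM in WT cortex. The ranges did not overlap, with KO higher. The log2 difference was 0.77 (SE 0.32, edgeR adjusted p = 0.737, unadjusted p = 0.0264), so it failed the correction. In cerebellum it had 5.25, 5.48 and 5.09 CPM in KO, against 3.77, 5.08 and 4.85 CPM in WT, ranges that all but touch. As these ranges do not overlap, KO would be higher under any pairing, so pairs by number add nothing. This arm in cortex and in cerebellum made the only 2 of 20 pairs of member and region in which KO and WT values did not overlap. KO was higher without overlap in both, as it was for 2.84% of all tested miRNAs in cortex and 4.48% in cerebellum. Olfactory bulb and hippocampus gave log2 differences of -0.11 and -0.0007 for the same arm.

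**Figure D2:**
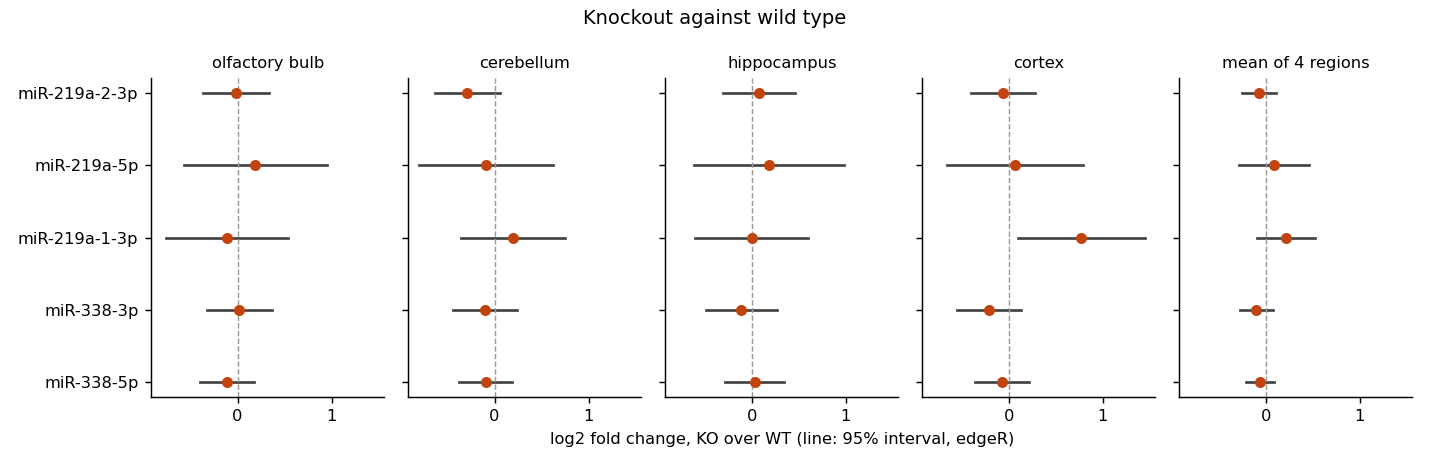
Log2 fold change of KO over WT (horizontal axis) for the 5 members in each region and averaged over the 4 regions, with points for edgeR estimates and lines for 95% intervals. Every interval holds 0 except that of miR-219a-1-3p in cortex, whose adjusted p was 0.737.

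Regions differed far more than genotypes, and the clearest difference was a low level of miR-219a in the olfactory bulb. miR-219a-2-3p averaged 141 ± 18 CPM in WT olfactory bulb (SD, n = 3), and 451 ± 49 CPM in WT cerebellum, 391 ± 58 CPM in WT hippocampus and 343 ± 22 CPM in WT cortex (SD, n = 3 each). It was thus 3.20-fold lower in olfactory bulb than in cerebellum, 2.78-fold lower than in hippocampus and 2.44-fold lower than in cortex. The log2 differences were -1.68, -1.47 and -1.29, with edgeR adjusted p between 3.37e-08 and 2.09e-06. In KO mice, whose libraries are separate from the WT ones, it was 2.66-fold, 2.97-fold and 2.37-fold lower in olfactory bulb than in cerebellum, hippocampus and cortex. The largest adjusted p of these in edgeR was 3.65e-06. All 6 olfactory bulb libraries lay below all 17 others, a separation that 5.83% of all tested miRNAs showed in the same direction.

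miR-219a-5p followed it. It averaged 41.9 ± 13 CPM in WT olfactory bulb, and 169 ± 13 CPM in WT cerebellum, 118 ± 11 CPM in WT hippocampus and 101 ± 39 CPM in WT cortex (SD, n = 3 each). The log2 differences of olfactory bulb were -2.03 over cerebellum, -1.51 over hippocampus and -1.29 over cortex in WT, with edgeR adjusted p of 8.15e-05, 0.00132 and 0.00466. In KO they were -1.75, -1.50 and -1.16, with adjusted p of 0.000391, 0.00314 and 0.0106 by the same test. The KO difference from cortex rested on few libraries: without KO cortex replicate 1 or 2 it was -0.91 with edgeR adjusted p of 0.0609 and 0.0620.

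Among the other 3 regions miR-219a-2-3p and miR-219a-5p separated less on the TMM scale, and the order depended on the scaling. miR-219a-2-3p ranked cerebellum, hippocampus, cortex in WT, but cerebellum over hippocampus (log2 0.21, edgeR adjusted p = 0.294) and hippocampus over cortex (0.19, adjusted p = 0.478) were within the spread. Cerebellum over cortex passed at 0.39 (adjusted p = 0.0421) in WT and not in KO (0.16, adjusted p = 0.402). The WT call ended, with adjusted p of 0.104 to 0.122, without any 1 of cerebellum replicates 2 and 3 and cortex replicates 1 and 3. With library size as the only scaling, miR-219a-2-3p was lower in cerebellum. Its log2 difference over cortex was then -0.30 in WT and -0.45 in KO (edgeR adjusted p = 0.0717 and 0.00905), and over hippocampus -0.50 in WT and -0.71 in KO (edgeR adjusted p = 0.00397 and 0.000558). For miR-219a-5p, cerebellum over cortex was 0.74 in WT and 0.59 in KO, with edgeR adjusted p of 0.0678 and 0.153.

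The miR-338 arms differed less between olfactory bulb and the other regions on the TMM scale than miR-219a-2-3p and miR-219a-5p did. miR-338-3p averaged 1025 ± 68 CPM in WT olfactory bulb, and 1532 ± 90 CPM in WT cerebellum, 1215 ± 154 CPM in WT hippocampus and 1178 ± 253 CPM in WT cortex (SD, n = 3 each). Olfactory bulb was lower than cerebellum, by a log2 difference of -0.58 in WT and -0.46 in KO (edgeR adjusted p = 0.00526 and 0.0231). It was not distinguishable from hippocampus (-0.25, adjusted p = 0.219) or cortex (-0.20, adjusted p = 0.306) in WT. The KO call against cerebellum ended, with edgeR adjusted p of 0.0514 to 0.121, without any 1 of cerebellum replicates 1 and 3 and olfactory bulb replicates 2 and 3. miR-338-5p lay at 98.0 ± 7.0 CPM in WT olfactory bulb, 115 ± 11 CPM in WT cerebellum, 93.4 ± 6.2 CPM in WT hippocampus and 105 ± 21 CPM in WT cortex, and passed no region test in either genotype.

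miR-338-3p had its highest mean in cerebellum on the TMM scale. It was higher than cortex by 0.38 in WT and 0.49 in KO on the log2 scale (edgeR adjusted p = 0.0496 and 0.0142), but with library size only as the scaling both turned, to -0.31 and -0.13. Cerebellum over hippocampus did not pass, at 0.33 in WT and 0.34 in KO (edgeR adjusted p = 0.0858 and 0.123), and with library size only it was -0.37 with a call in WT (adjusted p = 0.0430) and -0.21 in KO (adjusted p = 0.316). The WT call over cortex was lost in 17 of 23 fits that each left out 1 library, with adjusted p up to 0.216. The KO call over cortex was lost without KO cortex replicate 3, where the difference was 0.36 and edgeR's adjusted p was 0.0829.

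The members called are set beside all miRNAs by the share called in either direction. In WT, olfactory bulb over cerebellum had 3 of 5 members called with 55.5% of all miRNAs, over hippocampus 2 of 5 with 53.4%, and over cortex 3 of 5 with 53.2%. Cerebellum over hippocampus had 0 of 5 with 57.7%, and cerebellum over cortex 3 of 5 with 62.6%. Hippocampus over cortex had 0 of 5 with 20%. In KO the counts in the same order were 3 with 52.8%, 2 with 47.1%, 2 with 50.7%, 0 with 52.9%, 1 with 59.8% and 0 with 12.7%. The members' counts were near or under these shares throughout, and the number of calls is no result about the members. For WT cerebellum over hippocampus, 0 by edgeR, 1 member had an unadjusted p under 0.05 (62% of all miRNAs had one), and DESeq2 and limma-voom called 1 each. For WT hippocampus over cortex, 1 member had an unadjusted p under 0.05 (29.9% of all miRNAs), and DESeq2 and limma-voom called 0. In KO no member had an unadjusted p under 0.05 in either comparison, and limma-voom called 1 in cerebellum over hippocampus. The members' median log2 difference of olfactory bulb was -0.58 over cerebellum, -0.25 over hippocampus and -0.20 over cortex in WT, against -0.07, -0.01 and 0.06 for all tested miRNAs.

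Scaling mattered for miR-338 and not for the direction of miR-219a-2-3p and miR-219a-5p in olfactory bulb. As CPM of all reads, with no TMM factor, miR-219a-2-3p had 85.3 to 112 CPM in olfactory bulb and 297 to 615 in the other libraries. miR-219a-5p had 20.4 to 38.8 in olfactory bulb and 46.8 to 193 in the others. On the same scale miR-338-3p separated too, at 629 to 799 in olfactory bulb and 1098 to 1975 in the others. With library size only, olfactory bulb over cortex in WT became -2.19 for miR-219a-2-3p, -2.18 for miR-219a-5p, -1.10 for miR-338-3p and -1.01 for miR-338-5p on the log2 scale. That scaling also moved the median of all tested miRNAs by -0.90 in this comparison, by -0.91 against hippocampus and by -0.21 against cerebellum. The median of all tested miRNAs with library size only was -0.84 over cortex, -0.92 over hippocampus and -0.28 over cerebellum, and miR-219a-2-3p and miR-219a-5p lay further from it than the miR-338 arms. Upper quartile scaling moved these medians by 0.08, -0.17 and -0.30. With it, miR-338-5p was called lower in olfactory bulb than cerebellum, at -0.54 in WT and -0.61 in KO (edgeR adjusted p = 0.00486 and 0.0022). miR-338-3p was called lower than in WT hippocampus, at -0.41 (edgeR adjusted p = 0.0455). Against WT cortex neither miR-338 arm was called under it, at -0.12 for miR-338-3p and -0.03 for miR-338-5p. For the rare miR-219a-1-3p in WT olfactory bulb over hippocampus, the log2 difference was 0.26 with no call on the TMM scale and -0.64 with a call (edgeR adjusted p = 0.0415) with library size only. Beside these values, the 8 olfactory bulb markers took 219000 to 394000 CPM in olfactory bulb libraries and at most 6803 CPM elsewhere, and the red blood cell miRNAs summed to 64020 to 94250 CPM in cerebellum and at most 20760 CPM elsewhere. Neuronal miRNAs summed to 196400 to 225500 CPM in olfactory bulb and 120100 to 187400 CPM in the other regions. The part of these cells in the levels was not tested, and in tissue libraries fewer cells of a type and less RNA per cell cannot be told apart.

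**Figure D3:**
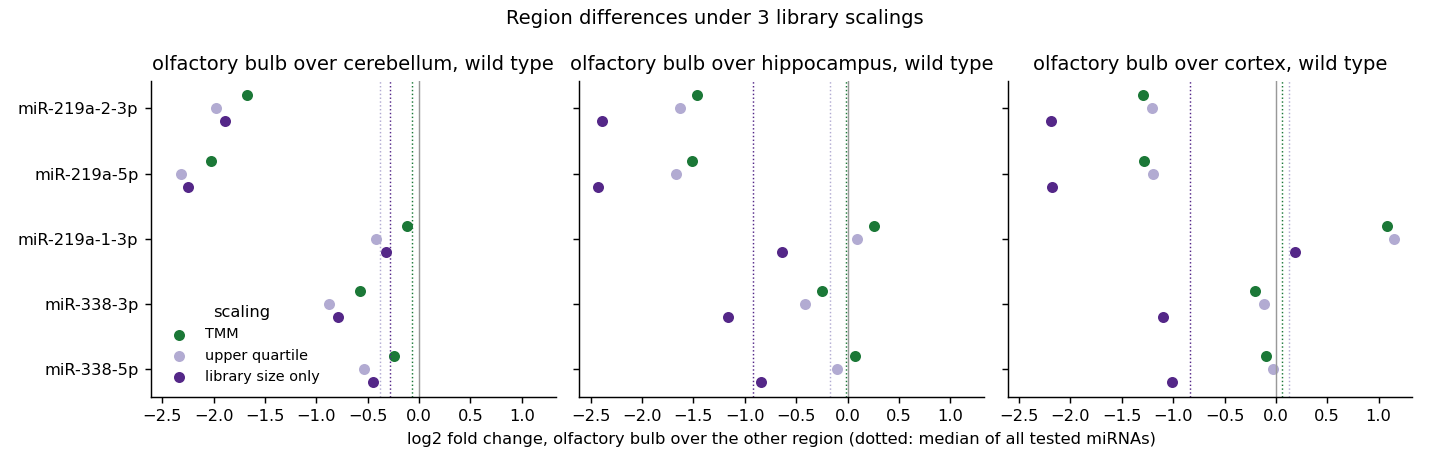
Log2 fold change of WT olfactory bulb over cerebellum, hippocampus and cortex (horizontal axes) for the 5 members under TMM, upper quartile and library size scaling, with dotted lines at the median of all tested miRNAs under each. miR-219a-2-3p and miR-219a-5p lie further left of the dotted line of their colour than the miR-338 arms in every panel. miR-338-3p also lies left of its line in every panel, and the arms of both families shift with the line.

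A ratio of counts within a library needs no scaling, and it set the families apart directly. The miR-219a arms summed to 0.169 reads per miR-338 read in KO olfactory bulb and 0.166 in WT olfactory bulb (geometric means, n = 3 each). In the other regions the ratio was 0.346 in KO and 0.379 in WT cerebellum, 0.444 in KO and 0.391 in WT hippocampus, and 0.392 in KO and 0.351 in WT cortex. Each miR-338 read was thus matched by fewer miR-219a reads in olfactory bulb than in any other region, in both genotypes. Among WT regions the largest gap was 2.36-fold. A test of any difference among regions gave a two-sided exact permutation p of 0.0173 (Benjamini-Hochberg adjusted over 8 ratio tests 0.0461). The adjusted p was above 0.05 in 10 of 12 repeats that left out 1 WT library (0.0546 to 0.0946) and was 0.118 when replicate numbers entered as blocks, while the gap itself stayed between 1.13 and 1.41 on the log2 scale in the repeats. KO over WT, the log2 ratio differed by 0.06 (exact permutation p = 0.511, adjusted 0.577).

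The miR-219a genes did not keep a fixed proportion. For each read of miR-219a-1-3p there were 33.8 of miR-219a-2-3p in KO olfactory bulb and 32.0 in WT olfactory bulb (geometric means). There were 68.9 in KO and 97.8 in WT cerebellum, 116 in KO and 113 in WT hippocampus, and 92.7 in KO and 170 in WT cortex. The 3p arm of Mir219a-2 was the common one everywhere, least so in olfactory bulb. Among WT regions the largest gap was 5.30-fold. The test of any difference among regions gave an exact permutation p of 0.000909 (adjusted 0.00727). That test kept its call without any 1 WT library and had an adjusted p of 0.0509 with the replicate block. miR-219a-1-3p itself was not lowest in olfactory bulb: it averaged 4.37 ± 0.96 CPM in WT olfactory bulb, and 4.57 ± 0.70, 3.58 ± 1.50 and 1.97 ± 0.34 CPM in WT cerebellum, hippocampus and cortex (SD, n = 3 each). It was higher than cortex by 1.08 in olfactory bulb and by 1.20 in cerebellum on the log2 scale in WT (edgeR adjusted p = 0.00578 and 0.00139), with adjusted p of 0.715 and 0.131 under library size only. In KO the same comparisons gave 0.20 and 0.62 (adjusted p = 0.639 and 0.0710).

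Between genotypes this proportion was lower in KO in cerebellum and cortex only. The log2 ratio of miR-219a-2-3p to miR-219a-1-3p was 5.96 to 6.32 in KO and 6.53 to 6.69 in WT cerebellum, and 6.27 to 6.79 in KO and 7.26 to 7.55 in WT cortex. KO libraries lay below WT libraries in these regions and among them in olfactory bulb and hippocampus. Mean differences of KO minus WT were -0.51 in cerebellum and -0.87 in cortex, but 0.08 in olfactory bulb and 0.04 in hippocampus. The ratio holds the rare miR-219a-1-3p, whose KO and WT levels did not overlap in cerebellum and cortex. It is therefore not separate evidence from those levels. Over the 4 regions the difference was -0.31 (two-sided exact permutation p = 0.0424, adjusted over 8 ratio tests 0.0848), which did not pass. Of the 23 repeats that left out 1 library, it passed only without WT hippocampus replicate 1 (-0.38, adjusted exact p = 0.0235) or KO olfactory bulb replicate 1 (-0.37, adjusted exact p = 0.0346). In the others it did not pass, with adjusted exact p up to 0.201. Beside the olfactory marker sums of cortex given above, the olfactory markers summed to 551 to 1131 CPM in KO and 876 to 1133 CPM in WT cerebellum, with a median log2 difference of -1.60 and 0 of 8 called. The choroid plexus markers summed to 10390 to 14380 CPM in KO and 11180 to 18760 CPM in WT cerebellum, with a median log2 difference of -0.64 and 0 of 9 called. In hippocampus the choroid plexus sum was 3302 to 3573 CPM in KO, against 3082 to 13410 CPM in WT. The part of these cells in the ratio was not tested.

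The miR-338 arms, which share a hairpin, stayed closer together. miR-338-3p outnumbered miR-338-5p by 11.4 in KO and 10.5 in WT olfactory bulb, 13.2 in KO and 13.3 in WT cerebellum, 11.8 in KO and 13.0 in WT hippocampus, and 10.1 in KO and 11.2 in WT cortex. The largest gap among WT regions was 1.27-fold. For any difference among regions the exact permutation p was 0.0151 (adjusted 0.0461), and the adjusted p was above 0.05 in 10 of 12 repeats without 1 WT library. miR-219a-5p had 0.325 reads per read of the 3p arms together in KO and 0.280 in WT olfactory bulb, 0.424 in KO and 0.371 in WT cerebellum, 0.327 in KO and 0.300 in WT hippocampus, and 0.265 in KO and 0.278 in WT cortex. This ratio joins arms of both miR-219a hairpins and varied widely between libraries. On the log2 scale it ran from -3.27 in KO cortex replicate 3 to -1.18 in KO cerebellum replicate 2. For it no difference passed between WT regions (exact permutation p = 0.352, adjusted 0.563) or by genotype (exact permutation p and adjusted p of 0.577).

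**Figure D4:**
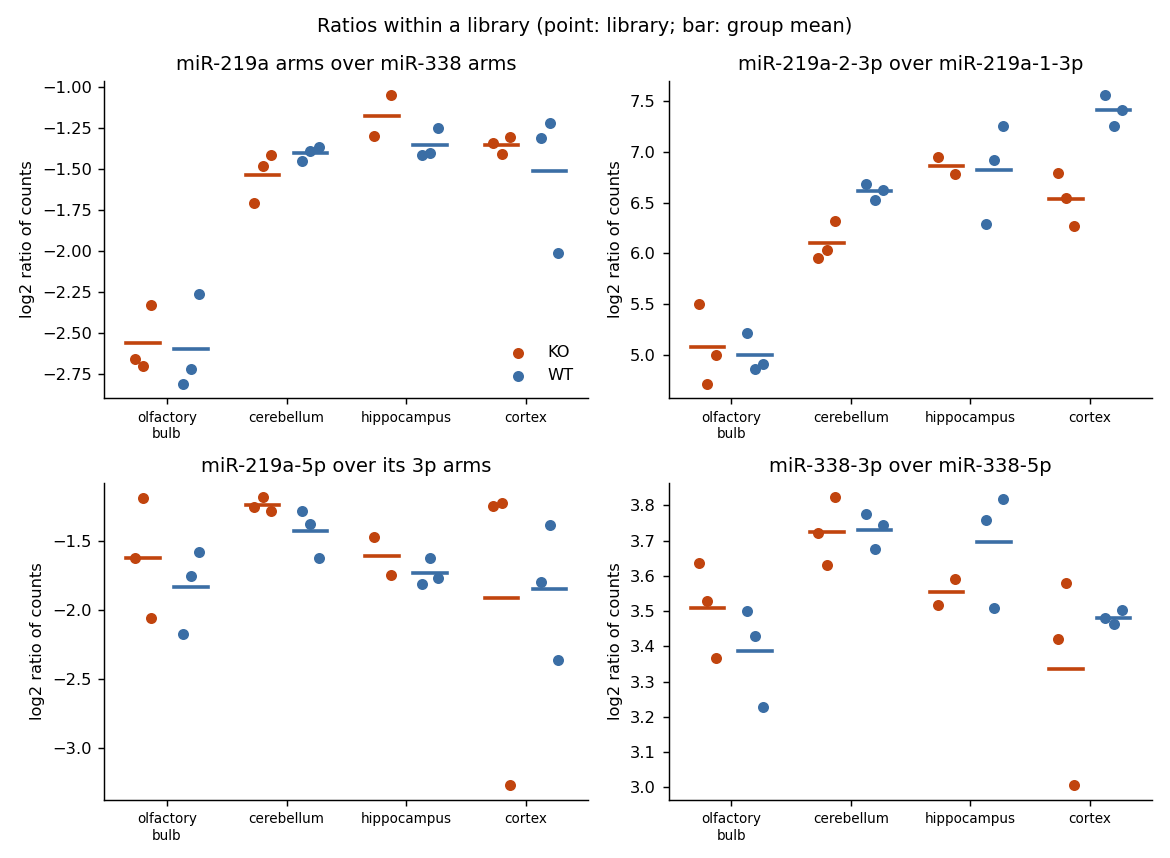
Log2 ratios of read counts within each library (vertical axes, own scale in each panel), with KO in orange left of WT in blue, points for libraries and bars for group means. Olfactory bulb is lowest for miR-219a over miR-338 and for miR-219a-2-3p over miR-219a-1-3p, and KO cortex replicate 3 is the low point for miR-219a-5p over its 3p arms.

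Cortex libraries numbered 3 stood apart for miR-219a-5p alone among the miR-219a arms. Against the mean of their group, its log2 level was -1.31 in KO replicate 3 and -0.57 in WT replicate 3, while miR-219a-2-3p was at 0.04 and -0.06 in the same libraries. The 5p arm, which has 38.1% G and C, was thus low where its more abundant partner was not. Only 2 tested miRNAs, miR-466f-3p and miR-539-3p, were as low or lower in both libraries. The 116 miRNAs with at most 43.5% G and C had a median deviation of -0.11 in KO replicate 3 and -0.05 in WT replicate 3, and the 118 with at least 52.4% had 0.16 and 0.04. KO cortex replicate 3 was also the library with the fewest reads. The part of base composition and depth in the low 5p values was not tested. Without both libraries, no member was called between genotypes.

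The pathway was extended with 16 other miRNAs linked to oligodendrocytes and their precursors, of which 15 were tested. They include the miR-17 to miR-92 cluster, known to promote growth of oligodendrocyte cells, miR-23a-3p, which acts on lamin B1 in these cells, and miR-138-5p, which prolongs an early stage of their differentiation. KO over WT, 0 of 15 passed in olfactory bulb, cerebellum and hippocampus. In cortex and in the mean of regions the list had 1 lower member, where 2.09% and 1.35% of all miRNAs were called lower. This was miR-7a-5p, the miRNA bound by Cdr1as, with a mean log2 difference of -1.07 (SE 0.13, edgeR adjusted p = 1.72e-05). Its estimate was negative in each region. The hippocampus value was the largest at -1.309, just short of the threshold (edgeR adjusted p = 0.0509). Cortex had -1.135 (edgeR adjusted p = 0.00801), olfactory bulb -0.935 (adjusted p = 0.365) and cerebellum -0.898 (adjusted p = 0.325). The list's median was -0.04 for the mean of regions, against -0.003 for all tested miRNAs.

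On the TMM scale more of this list was higher than lower in olfactory bulb, where miR-219a-2-3p and miR-219a-5p were lower. The list is not specific to oligodendrocytes. Its miR-138-5p, miR-145a-5p and miR-146a-5p are also on the lists used here for neurons, endothelial and mural cells, and microglia and leukocytes. In WT olfactory bulb over cortex, 8 of 15 were higher and 2 lower, where 26.2% and 27.1% of all miRNAs were. Those higher included miR-19b-3p (log2 1.40), miR-92a-3p (1.21), miR-17-5p (1.04) and miR-18a-5p (2.14), all of the miR-17 to miR-92 cluster. Under library size only that split was 2 higher and 7 lower, and the list's median turned to -0.20, against 0.70 on the TMM scale. Olfactory bulb over cerebellum kept its direction under RLE, upper quartile and library size scaling, with 9 higher and 0 lower under TMM (26.3% and 29.1% of all miRNAs) and 9 higher and 2 lower under library size only. Those with the smallest p included miR-212-3p (log2 2.50), miR-17-5p (1.73) and miR-92a-3p (1.69). Against cerebellum, then, 9 miRNAs of the list were higher in olfactory bulb while miR-219a-2-3p and miR-219a-5p were lower.

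The miRNAs whose levels over 23 libraries were most like those of miR-219a-2-3p were miR-299b-3p, miR-299a-3p, miR-376b-5p and miR-3078-5p. Likeness was the root mean square difference of log2 CPM, each centred on its own mean, which was 0.23, 0.23, 0.27 and 0.29, against a median of 0.87 for the other tested miRNAs. The miR-299 pair may share reads because its members are near-identical. miR-376b-5p averaged 78.1 ± 6.8 CPM in WT olfactory bulb and 167 ± 9, 186 ± 2.7 and 151 ± 18 CPM in WT cerebellum, hippocampus and cortex (SD, n = 3 each). All 4 were closer to miR-219a-2-3p than miR-219a-5p was, at 0.47. miR-338-5p was at 0.61, so the 2 families were not each other's nearest. For miR-338-3p the nearest was its own partner arm, miR-338-5p, at 0.19. The nearest others were miR-21a-5p (0.22), miR-361-3p (0.24), let-7f-2-3p (0.24) and miR-126a-3p (0.24), against a median of 0.64. These likenesses are over libraries that share depth and scaling and are given as a description.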

How the data were processed

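Raw read counts for each mature miRNA were deposited by the authors, a table for each library, from reads mapped to mm9, per the submitters' processing notes. Total RNA was isolated with TRIZOL and sequenced with TruSeq small RNA kits, per the labels' protocols. Which aligner, counting program and miRNA annotation were used, and how reads matching several miRNAs were counted, is not given in the sources.

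The analysis used edgeR 4.0.16 in R 4.3.3. filterByExpr (minimum count 10, minimum total 15) kept 669 miRNAs and 99.988% or more of each library's reads. TMM scaled the libraries. One quasi-likelihood model with 8 group means was fitted to 23 libraries, with two-sided tests, Benjamini-Hochberg adjustment over 669 miRNAs and a threshold of 0.05. Log2 ratios of counts, with 0.5 added, were compared by two-sided exact permutation tests that exchanged genotypes within regions (80000 arrangements) or regions among WT libraries (369600), adjusted over 8 tests. The statistic was the mean of the within-region differences for genotypes and the sum of squares between regions for regions. The largest gap between regions is a description and was not itself tested. Alternatives were RLE, upper quartile and library size scaling, no filter, DESeq2 1.42.0, limma-voom (limma 3.58.1), replicate blocks, the 2 groups of a region alone, and leaving out each library. The edgeR fit was tried on simulated counts for KO over WT in cortex. The ratio tests were tried on values drawn from a normal distribution, not on counts. Library pairs within a group differed by more than sampling noise (chi-square per degree of freedom 28.4 to 242 over 22 pairs). Amplified reads carry no molecular identifiers, so statements on depth cover counting error only.

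Same-numbered KO and WT libraries correlated weakly in cerebellum (r = 0.12, 0.37 and 0.10 across miRNAs, each over 0.1). Cerebellum KO replicate 1 and WT replicate 3, of different numbers, had r = 0.195. Elsewhere, same-numbered pairs over 0.1 were cortex number 2 (0.14) and olfactory bulb number 3 (0.139). Pairs of different numbers reached 0.256 (olfactory bulb KO 2 and WT 1), 0.216 (hippocampus KO 2 and WT 3) and 0.207 (hippocampus KO 3 and WT 1). Across regions within a genotype, 10 of 33 same-numbered pairs were over 0.1 (median 0.054), against 7 of 66 of different numbers (median -0.031). The main region tests did not pair libraries by number. The numbers were taken to pair cerebellum libraries, from the data and not from the labels, and this pairing is uncertain.

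The members, lists and tests were chosen with earlier results of these data known. Named miRNAs are the members, their opposite-strand partners, up to 4 of the lineage list with the smallest p in a comparison, and the 4 miRNAs most like miR-219a-2-3p and miR-338-3p. The marker lists for neurons, microglia and leukocytes, red blood cells, endothelial and mural cells, choroid plexus and hindbrain had 0 members called between genotypes. Of the 8 olfactory bulb markers, 8 were lower in KO cortex and 7 in the mean of regions. Of all 669 miRNAs, 14 (2.09%) were lower in KO cortex and 9 (1.35%) in the mean of regions.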

Additional observations from a re-analysis of the deposited data

How the results depend on the processing

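For 57 results, 1710 pairs of a result and another setting were compared, and 1593 (93.2%) stayed the same. For a log2 difference or ratio this meant the same direction and side of the threshold. For a count of members called it meant an equal or nearly equal count, with genotype counts that stayed at 0 included. The count of members called between genotypes was 0 in every region, in their mean and in the difference between regions under every setting, the replicate blocks included. Counts of members called between regions moved with scaling. Upper quartile scaling gave 5 in WT cerebellum over cortex, 1 in WT hippocampus over cortex, 2 in WT cerebellum over hippocampus, and in KO 5 for cerebellum over cortex, 1 for cerebellum over hippocampus and 5 for olfactory bulb over cerebellum. Library size only gave, in WT, 1 for cerebellum over cortex, 1 for hippocampus over cortex, 3 for cerebellum over hippocampus and 5 for olfactory bulb over hippocampus. In KO it gave 2 for cerebellum over cortex, 4 for olfactory bulb over cortex, 2 for cerebellum over hippocampus, 4 for olfactory bulb over hippocampus and 5 for olfactory bulb over cerebellum. WT cerebellum over hippocampus had 1 with RLE, 1 with DESeq2 and 1 with limma-voom, which also gave 1 in KO, and KO cerebellum over cortex had 2 without the filter. Without the 2 cortex libraries numbered 3, a choice made after seeing the data, WT cerebellum over hippocampus had 3 and KO cerebellum over cortex 0.

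Leaving out 1 library at a time gave 1 to 4 for WT cerebellum over cortex, 0 to 1 for WT hippocampus over cortex, 0 to 1 for WT cerebellum over hippocampus, 0 to 2 for KO cerebellum over cortex, 1 to 2 for KO olfactory bulb over cortex and 0 to 1 for KO cerebellum over hippocampus.

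Scaling turned the sign of a member's log2 difference 24 times with library size only, 8 with upper quartile scaling and 2 with RLE, and 13 of these, all with library size only, had a call on either scale. They were, in WT, cerebellum over cortex at -0.30 for miR-219a-2-3p, -0.31 for miR-338-3p and -0.56 for miR-338-5p, cerebellum over hippocampus at -0.50, -0.37 and -0.39 for the same arms, and olfactory bulb over hippocampus at -0.64 for miR-219a-1-3p and -0.85 for miR-338-5p. In KO they were cerebellum over cortex at -0.45 for miR-219a-2-3p, -0.13 for miR-338-3p and -0.50 for miR-338-5p, olfactory bulb over cortex at -0.89 for miR-338-3p, and cerebellum over hippocampus at -0.37 for miR-338-5p. WT olfactory bulb over hippocampus for miR-338-5p was -0.10 with upper quartile scaling and -0.054 without the filter. For miR-338-5p, WT olfactory bulb over cortex was 0.068 without both cortex libraries numbered 3, and -0.221 to 0.077 without 1 library at a time.

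With the replicate block the log2 ratios between WT regions kept their size and missed the threshold, at 0.35 for the miR-338 arms (adjusted exact p = 0.0509), 2.41 for miR-219a-2-3p over miR-219a-1-3p (0.0509) and 1.24 for miR-219a over miR-338 (0.118). No other call changed under a block, and only the cerebellum numbers were taken, with uncertainty, as pairs. Leaving out 1 library at a time these ratios were 0.27 to 0.40, 2.33 to 2.52 and 1.13 to 1.41. KO over WT they were -0.38 to -0.26 for miR-219a-2-3p over miR-219a-1-3p and -0.001 to 0.10 for miR-219a over miR-338. Without both cortex libraries numbered 3 the KO over WT ratios were 0.002 for the miR-338 arms and -0.007 for miR-219a over miR-338. The largest miR-338 gap between WT regions was then 0.35, and the test among regions had an adjusted exact p of 0.0656. The causes were not tested. Depth limits miR-219a-1-3p, with 8 to 56 reads a library, and 2 KO hippocampus libraries limit that comparison.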
